A study of Drosophila melanogaster with 16 samples.

Results

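The mRNAs described here are those of the mitochondrial ribosomal protein genes, taken as every gene whose FlyBase symbol starts with mRpL or mRpS. There were 73 such genes among the 14458 genes and other features of the tables, 47 named for the large subunit (mRpL) and 26 for the small subunit (mRpS). Newly made RNA of the larval brain of Drosophila melanogaster was measured by EC-tagging, in which CD:UPRT, a fusion of cytosine deaminase and uracil phosphoribosyltransferase, turns the fed base analog 5-ethynylcytosine (5EC) into a clickable uridine inside the cells that express it. Larvae of the L3 stage and of 2 genotypes were used, all carrying CD:UPRT. In insc_CD:UPRT larvae insc-Gal4 drives the enzyme in neural progenitors, called neuroblasts here, and in nsyb_CD:UPRT larvae nSyb-Gal4 drives it in neurons. Every larva was fed 5EC for 12 h (the pulse), and the chase with untagged uridine then lasted 3, 6 or 12 h. Each genotype gave a pair of libraries from the pulse and a pair from each chase time, 16 libraries in all. No library without CD:UPRT or without 5EC was analysed here, and the Gal4 lines label classes of cells rather than single cell types.

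Mitochondria keep ribosomes of their own, which translate the few mRNAs of the mitochondrial genome into subunits of the respiratory chain. The ribosomal RNAs come from the mitochondrial genome, while the proteins are encoded in the nucleus, translated in the cytosol and imported. Many of them descend from bacterial ribosomal proteins, and the rest are specific to mitochondrial ribosomes. The 73 genes were sorted by the numbers in their symbols into 44 listed with a bacterial counterpart and 29 listed without one. No sequences were compared, so single genes may sit in the wrong group. The 73 genes are spread over the genome, with 21 on 3R, 17 on 3L, 12 each on 2L and 2R and 11 on X. Their leading transcripts are short, 327 to 1829 bases with a median of 740, against a median of 1591 over all features.

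Depth was uneven. Neuroblast libraries held 11053940 to 31713720 estimated counts and neuron libraries 44317916 to 211109573. Mitochondrially encoded RNA took 9.66 to 12.8% of the counts in neuroblast libraries, 86.3 to 92.1% in the neuron libraries of replicate 1 and 2.75 to 11.9% in those of replicate 2. Levels are therefore given as nuclear CPM, the estimated count scaled to a total of 1000000 counts of nuclear-encoded features. Values called counts, as in the courses of single genes, are estimated counts that are not scaled for depth. The 12 h neuroblast library of replicate 1 stood apart, with 56.3% of its counts on rRNA and 1868 features at 10 or more counts, while the other neuroblast libraries had 6308 to 10398. In neurons this number ran from 921 at the pulse in replicate 1 to 14019 at 12 h in replicate 2. The 6 neuron markers (elav, nSyb, Syt1, brp, Syx1A, Snap25) summed to 1512 to 4734 nuclear CPM in neuron libraries and 171 to 1930.5 in neuroblast libraries, and all 6 were detected, at 10 or more counts, in 7 of the 8 neuroblast libraries. The 6 neuroblast markers (ase, wor, dpn, insc, klu, mira) summed to 0.515 to 87.7 nuclear CPM in neuroblast libraries and 0.190 to 458 in neuron libraries. Of these, ase had 10 or more counts in more neuroblast than neuron libraries (5 and 4), insc in 5 of each, and wor, dpn, klu and mira in more neuron than neuroblast libraries, from 2 against 1 for dpn to 5 against 3 for klu.

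The mRNAs of mitochondrial ribosomal proteins were detected in larger number at the pulse in neuroblasts than in neurons, as was the whole set of features. A gene was counted as detected in a library at 10 or more estimated counts. In neuroblasts, replicate 2 had 68 of the 73 genes at the pulse, 71 at 3 h, 62 at 6 h and 57 at 12 h. Replicate 1 had 35, 29, 34 and 5 at the same times. In neurons, replicate 2 had 7, 34, 63 and 73 genes, and replicate 1 had 0, 13, 6 and 10. In replicate 2 detection was thus lower at 12 h than at the pulse in neuroblasts and rose throughout in neurons. Replicate 1 had fewer of the 73 genes at every time point of both cell types. Over all features it was slightly ahead at 3 h in neurons (44.3 against 43.4%). The share detected over all features moved with that of the 73 genes. In neurons of replicate 2 it was 15.8, 43.4, 65.3 and 97.0% of all features, beside 9.59, 46.6, 86.3 and 100% of the 73 genes, and in replicate 1 it was 6.37, 44.3, 23.9 and 35.96% beside 0, 17.8, 8.22 and 13.7%. In neuroblasts of replicate 2 it was 62.1, 71.9, 50.7 and 51.1% of all features beside 93.2, 97.3, 84.9 and 78.1%, and in replicate 1 it was 49.0, 43.6, 44.1 and 12.9% beside 47.9, 39.7, 46.6 and 6.85%.

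**Figure D1:**
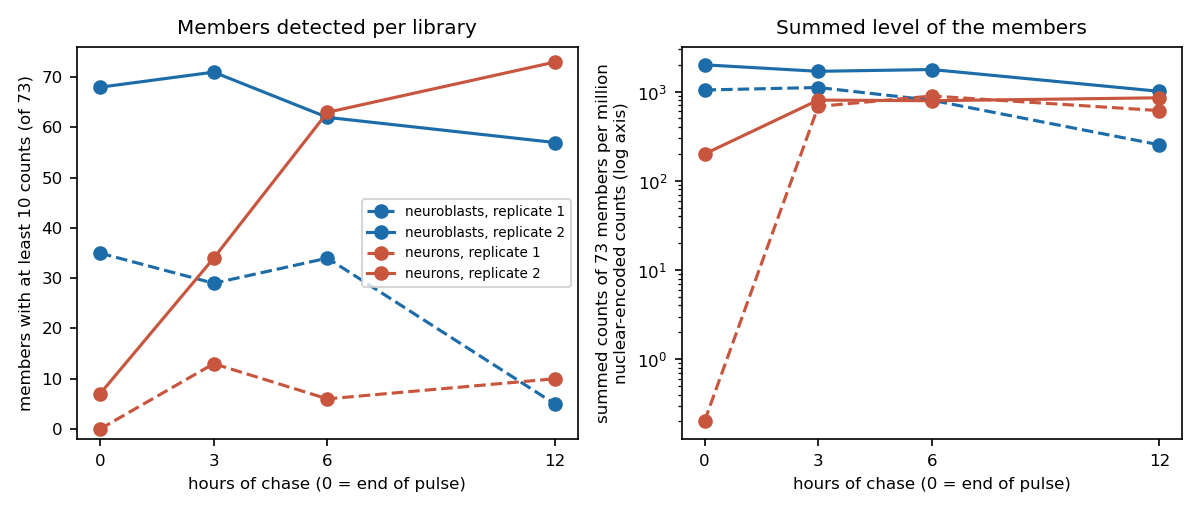
Left, number of the 73 genes with at least 10 estimated counts in each library against hours of chase (0 is the end of the pulse). Right, summed counts of the 73 genes in nuclear CPM on a log axis. Blue, neuroblasts; red, neurons; dashed lines, replicate 1; solid lines, replicate 2; each point is 1 library. In replicate 2 the neuron line climbs from 7 to 73 genes while the neuroblast line goes from 68 to 57.

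The summed level of the 73 genes was lower at 12 h than at the pulse in both neuroblast replicates and was higher at 12 h in both neuron replicates. In neuroblasts it was 1042 and 1995 nuclear CPM at the pulse (replicates 1 and 2), with 95% Wilson intervals of 1026 to 1058 and 1969 to 2022 that cover counting error only. It was 1110.5 and 1688 at 3 h, 799 and 1767 at 6 h, and 253 and 1007 at 12 h. The replicates differed by more than any pair of neighbouring times within replicate 2 before 12 h. The mean at 12 h was 0.415 times that at the pulse, 0.243 in replicate 1 and 0.504 in replicate 2, and 0.599 when rRNA features were left out of the total. In neurons the level was 0.201 and 199 nuclear CPM at the pulse, 681 and 803 at 3 h, 892 and 789.5 at 6 h, and 612 and 852 at 12 h. Both pulse libraries of neurons lay below each of the other 14 libraries. Over all features too, more were lower than higher at 12 h in neuroblasts (48.0 against 7.57% and 55.5 against 13.6% in replicates 1 and 2). In neurons more were higher than lower (41.9 against 5.64% and 93.8 against 5.02%). These values are shares of each library, so they measure neither the number of tagged cells nor the tagged RNA per cell.

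In several neuron libraries few genes made up the total. mRpL9, the counterpart of bacterial L9, held 31758 counts at the neuron pulse in replicate 2, 77.6% of all counts of the 73 genes in that library. mRpS18B, of the bacterial S18 family, held 40713 counts at 3 h in replicate 2 (29.98%), and mRpS25, a protein without a bacterial counterpart, 3852 at 6 h in replicate 1 (76.3%). The 3 highest genes of each neuron library took 12.5 to 100% of its total, against 14.4 to 71.4% in neuroblasts. The lowest neuron shares, 24.1 and 12.5%, were those of replicate 2 at 6 and 12 h, where most genes were detected. The total at the neuron pulse of replicate 2 without mRpL9 was 44.7 nuclear CPM. Across genes, the median share of a gene's level, summed in nuclear CPM over 8 libraries, that came from its highest library was 69.5% in neurons and 34.3% in neuroblasts, and 62 genes in neurons and 14 in neuroblasts had over 50% in 1 library. In raw counts, which weigh the deeper libraries more, these medians were 79.5 and 36.5%.

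**Figure D2:**
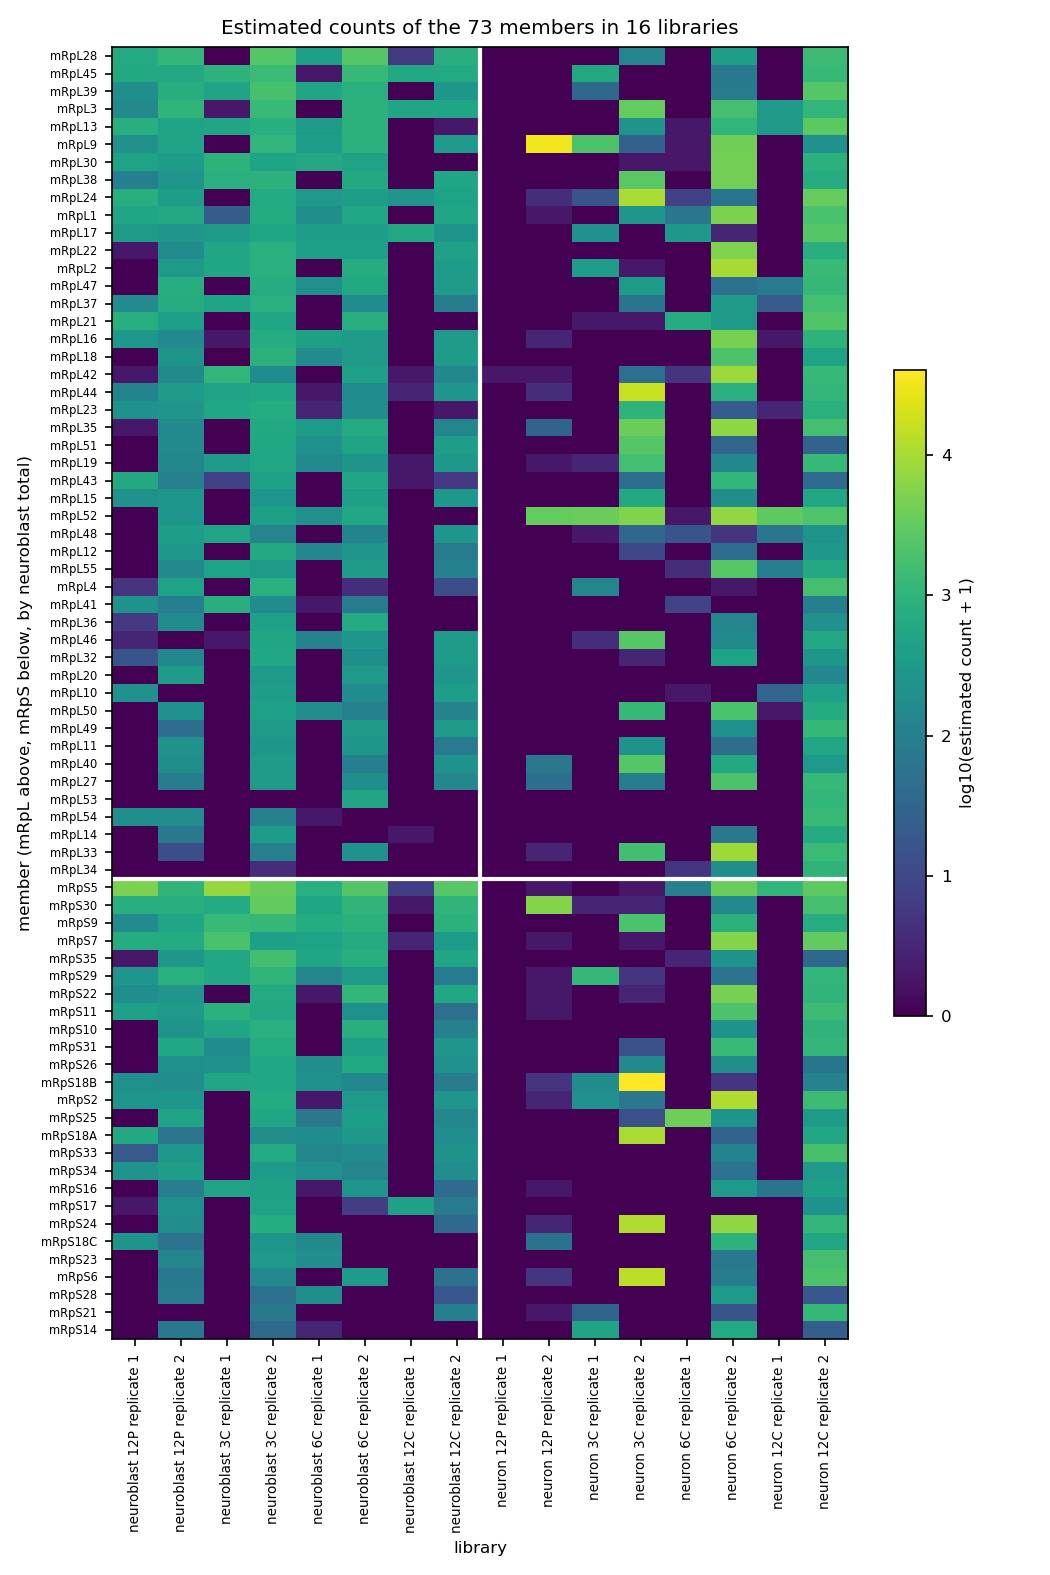
Estimated counts of each of the 73 genes (rows, mRpL above and mRpS below, ordered by total count in neuroblasts) in the 16 libraries (columns, neuroblasts left and neurons right), coloured by log10 of the count plus 1. Rows of replicate 1 columns are often dark where the replicate 2 column beside them is bright, as at 12 h, where 5 of 73 genes in neuroblasts and 10 in neurons reached 10 counts in replicate 1.

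Replicates disagreed often on whether an mRNA was present. Over the 4 time points in neuroblasts, 237 pairs of a gene and a time had at least 100 counts in 1 replicate, and in 114 of them (48.1%) the other replicate had less than 1 count, 110 times replicate 1. Both replicates reached 100 counts in 90 pairs. In neurons there were 151 such pairs, of which 116 (76.8%) had less than 1 count in the other replicate, 112 times in replicate 1, and 9 had 100 or more in both. Over all features these shares were 30.7% in neuroblasts and 50.1% in neurons. The labels number the replicates 1 and 2, and the methods describe feeding in triplicate and duplicate RNA samples for biotinylation, so the spread may be partly technical.

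Among the mRpS genes, mRpS5 was the most abundant mRNA per length in neuroblasts, at 108 nuclear CPM per kilobase (mean of 8 libraries). Its bacterial counterpart lies at the entry of the mRNA channel. The gene lies at 3L:24537236-24543534 on the plus strand (BDGP6.54 annotation) and is given by 3 transcripts. Its counts in neuroblasts were 4926 and 1036 at the pulse, 7677 and 3616 at 3 h, 842 and 2407 at 6 h, and 6.22 and 2537 at 12 h. In neurons they were 0 and 1 at the pulse, 0 and 1 at 3 h, 102 and 3637 at 6 h, and 1115 and 2896 at 12 h. Neuroblast libraries were high from the pulse on apart from the last of replicate 1, and neuron libraries were at or near 0 until 6 h in both replicates. These counts sum the 3 transcripts, and the cell types differed in the leading one. FBtr0111146 held 4926 and 941 counts at the neuroblast pulse and at most 3.02 in any neuron library. In neurons FBtr0111144 held 3637 counts at 6 h in replicate 2 and 1114 at 12 h in replicate 1. FBtr0111147 held 2713 at 12 h in replicate 2. The course thus does not follow 1 transcript across the cell types. The fitted slope was −0.03 (SE 0.11) log2 units per hour in neuroblasts and 0.93 (SE 0.62) in neurons, with adjusted p = 0.986 and 0.635 in edgeR's quasi-likelihood test. mRpS30, a protein without a bacterial counterpart, had 795 and 761 counts at the neuroblast pulse, 651 and 3140 at 3 h, 503 and 1023 at 6 h, and 1 and 1017 at 12 h. In neurons it had 0 and 5593, 2 and 2, 0 and 149, and 0 and 1748 counts at these times, so a single replicate carried its signal at the pulse.

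Other mRpS mRNAs had much of their neuron level in 1 library. mRpS18B, at 2L:20096329-20097253 on the minus strand, had 202 and 179 counts at the neuroblast pulse, 504 and 557 at 3 h, 208 and 139 at 6 h and 0 and 87 at 12 h. In nuclear CPM the replicates were at 12.4 and 16.1 at the pulse, 22.1 and 19.5 at 3 h, and 16.1 and 7.67 at 6 h. In neurons it had 0 and 4, 166 and 40713, 0 and 4, and 0 and 110 counts, and 94.7% of its level summed over the neuron libraries, in nuclear CPM, lay in 1 library. mRpS24, named for the bacterial S3 family in the uniform nomenclature, mRpS6 and mRpS2 had 54.5, 77.3 and 68.6% of theirs in 1 library. Their highest neuron counts were 11327 and 13648 at 3 h for mRpS24 and mRpS6 and 11405 at 6 h for mRpS2, all in replicate 2, while replicate 1 had 0 counts of all 3 genes at 6 h and 217 of mRpS2 at 3 h. mRpS25 had 3852 counts at 6 h in replicate 1 and 243 in replicate 2, and 99.2% of its summed neuron level lay in the first of these libraries. Its fitted neuron slope was 1.24 (SE 1.19), adjusted p = 0.779 by edgeR.

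Among the mRpL genes, mRpL28 followed mRpS5 in neuroblasts at 46.9 nuclear CPM per kilobase, and mRpL52 was the highest in neurons at 167. mRpL52, a protein without a bacterial counterpart, had 3362, 5530, 7146 and 2224 counts in the neuron libraries of replicate 2 from the pulse to 12 h. In replicate 1 it had 0, 3621, 1 and 2915 counts. In nuclear CPM these were 16.4, 32.7, 44.6 and 24.6 in replicate 2 and 0, 267, 0.177 and 358 in replicate 1. The libraries of replicate 1 at 3 and 12 h thus weigh most in its neuron mean and rank. In neuroblasts it had 268, 409, 550 and 0 counts in replicate 2 and 0, 0, 206 and 0 in replicate 1. It was detected in 6 of 8 neuron libraries, more than any other of the 73 genes, and in 4 of 8 neuroblast libraries. At 3 h it was the only gene of the 73 with both neuron libraries above both neuroblast libraries.

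mRpL17, the counterpart of bacterial L17, was the only gene detected in all 8 neuroblast libraries. It lies at 3L:264779-265932 on the plus strand and had 318 and 257 counts at the pulse, 357 and 510 at 3 h, 374 in each replicate at 6 h and 614 and 247 at 12 h. In nuclear CPM it was at 19.5 and 23.1 at the pulse and 63.2 and 13.7 at 12 h. Neither neuron pulse library held a count of it, and the later neuron libraries had 226 and 0 at 3 h, 285 and 2 at 6 h, and 0 and 2493 at 12 h. mRpL45, which in mammals binds near the exit of the nascent chain and helps to anchor the ribosome to the inner membrane, had 618 and 603 counts at the neuroblast pulse, 959 and 1401 at 3 h, 1 and 1221 at 6 h, and 628 and 646 at 12 h. These were 2 of the 5 mRNAs still detected at 12 h in replicate 1 of neuroblasts. The others were mRpL3, whose bacterial counterpart lies near the peptidyl transferase centre, with 513 counts, mRpL24 with 250 and mRpS17 with 433. Of the genes named in the text, mRpL3, mRpL13, mRpL28, mRpL32, mRpL34, mRpL45, mRpL53, mRpL55, mRpS16, mRpS17 and mRpS33 were chosen after their values were seen.

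At the other end, mRpL54, a protein without a bacterial counterpart, had 195 and 180 counts at the neuroblast pulse, 0 and 100 at 3 h, 1 and 0 at 6 h, and 0 in both libraries at 12 h. In neurons it was at 0 in 7 libraries and had 1295 counts at 12 h in replicate 2. mRpL34, the counterpart of bacterial L34 and the shortest transcript of the 73, had no neuroblast library with 10 or more counts and 3 counts in all, while neurons had 4 and 185 counts at 6 h and 0 and 1007 at 12 h. mRpL53 had 534 counts in 1 neuroblast library and 1126 in 1 neuron library, and its transcript lies wholly within exons of CG33155 on the same strand, so its reads could be shared. Across the 73 genes, Spearman's rank correlation between transcript length and the number of libraries with detection was 0.55 in neuroblasts and 0.17 in neurons, over genes that share the same libraries. Over all features it was 0.46 and 0.55.

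**Figure D3:**
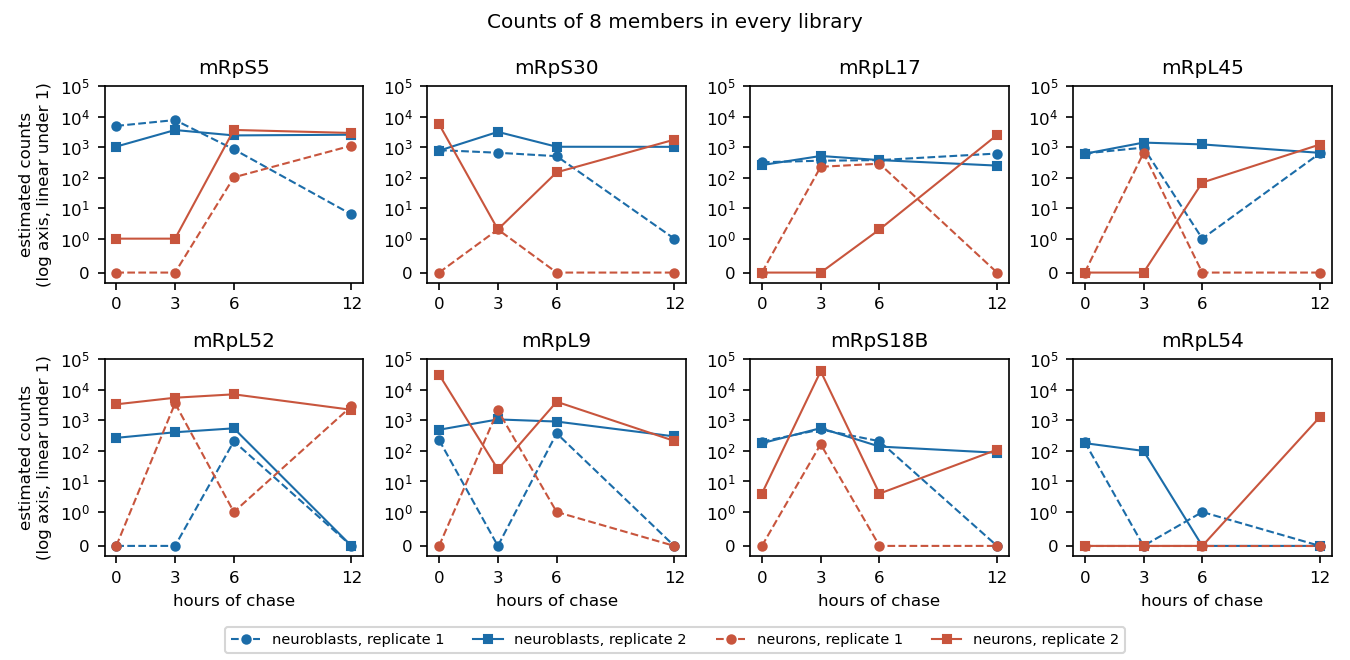
Estimated counts of 8 genes in every library against hours of chase, on an axis that is logarithmic above 1 and linear below. Blue, neuroblasts; red, neurons; circles and dashed lines, replicate 1; squares and solid lines, replicate 2. mRpL17 stays between 247 and 614 counts in all 8 neuroblast libraries, and mRpS18B reaches 40713 in 1 neuron library. Counts are not scaled for depth.

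The first question of the design was whether tagged mRNAs fell over the chase within each cell type. Counts were scaled to their library, so a slope is relative to the other RNA there and gives no absolute decay. A slope near 0 thus does not show a stable mRNA. Below, a gene rose or fell where edgeR called it at the threshold. The median biological coefficient of variation was 1.80 in the neuroblast fit and 2.98 in the neuron fit. With so wide a spread, a gene not called may still have changed. In neuroblasts none of the 71 genes that passed the filter on low counts rose or fell (edgeR's quasi-likelihood test on hours of chase, adjusted p under 0.05, lowest value 0.613), against 0.607% of the 10042 genes tested, all 61 of them rising and 0 without the 12 h library of replicate 1. No gene of the 73 passed at an unadjusted p under 0.05 either. Slopes were negative for 39 and positive for 32, with a median of −0.01 log2 units per hour beside −0.10 over all genes tested. The median was 0.00 for the 45 mRpL genes and −0.04 for the 26 mRpS genes. It was −0.01 for genes listed with a bacterial counterpart and −0.01 for those listed without. Of 62 genes fitted in each replicate alone, 20 (32.3%) had a negative and 8 (12.9%) a positive slope in both, beside 51.9 and 11.8% of all genes. The steepest of these were mRpL54 at −0.99 (SE 0.50), mRpL41, a protein without a bacterial counterpart, at −0.87 (SE 0.59) and mRpL23, whose bacterial counterpart sits at the exit tunnel, at −0.69 (SE 0.48), and on the rising side mRpL46 at 0.36 (SE 0.40), mRpL17 at 0.24 (SE 0.14) and mRpL51 at 0.18 (SE 0.29). Their adjusted p-values by edgeR ran from 0.613 to 0.951. The sign in replicate 1 alone could rest on 1 library, as for mRpL51, with 210 counts at 6 h and 0 at the other times. DESeq2 called 0 falling and 2 rising, mRpL17 and mRpL45, among 9.41% of all genes rising, and edgeR with RLE scaling called these and mRpS17 rising, among 7.32%.

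Of the 11800 genes tested in neurons, edgeR called 0% rising or falling. None of the 69 genes past the filter was thus called (edgeR, lowest adjusted p of the 69 genes 0.230). At an unadjusted p under 0.05, 5 of them were rising and 1 falling. Slopes were positive for 53 and negative for 16, with a median of 0.53 log2 units per hour beside 0.21 over all genes tested. In replicate 2 the level in nuclear CPM was higher at 12 h than at the pulse for 71 of 73 genes, as for 93.8% of all features, and 40 genes (54.8%) were highest at 12 h, beside 67.8% of all features. In replicate 1, 13 genes (17.8%) were higher, 1 lower and 59 equal, beside 41.9% of all features higher and 5.64% lower. Of 36 genes fitted in each replicate alone, 19 (52.8%) had a positive and 5 (13.9%) a negative slope in both, beside 40.5 and 10.3% of all genes. The largest slopes were 1.36 (SE 1.26) for mRpL21, the counterpart of bacterial L21, 1.26 (SE 1.23) for mRpL30, the counterpart of bacterial L30, and 1.24 (SE 1.19) for mRpS25, and on the other side −0.92 (SE 0.40) for mRpL9, −0.83 (SE 0.61) for mRpS18B and −0.46 (SE 0.31) for mRpS30. Their adjusted p-values by edgeR ran from 0.366 to 0.779. The sign in replicate 1 alone could rest on very few counts. From the pulse to 12 h, replicate 1 held 0, 0, 1 and 0 counts of mRpL30 and 0, 2, 0 and 0 of mRpS30. DESeq2 called mRpS25 and mRpL21 rising and mRpL9 falling, among 3.47% of all genes rising and 2.86% falling.

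The second question was whether the course differed between the cell types. For no gene of the 73 was a different slope called (edgeR, interaction of cell type and hours, lowest adjusted p 0.0664, that of mRpL54). The median biological coefficient of variation of this fit was 2.60, so differences may have gone uncalled. Over the 12787 genes tested 0.571% were called. These 73 calls over all genes fell to 0 with the replicate number as a block and to 0 to 8 when 1 neuroblast library was left out, and were 6 to 68 when 1 neuron library was. At an unadjusted p under 0.05 the slope was larger in neurons for 2 genes and in neuroblasts for 1. The difference of slopes, neuroblasts minus neurons, was negative for 54 genes and positive for 19, with a median of −0.62 beside −0.47 over all genes tested. It was −2.20 (SE 0.66) for mRpL54, −1.05 (SE 0.53) for mRpS5, whose leading transcript differed between the cell types, and 0.81 (SE 0.37) for mRpL9. DESeq2 called a larger slope in neurons for mRpS25, mRpL13, mRpS17 and mRpL21 and a larger slope in neuroblasts for mRpL9, among 14.8% and 3.08% of all genes. Scaling to the total of nuclear-encoded counts called mRpL54 (adjusted p = 0.0343 by edgeR), among 2.29% of all genes. mRpL54 and mRpS17 did not pass the filter in neurons alone and entered this fit mainly through neuroblasts. In neurons only the 12 h library of replicate 2 held counts of them (1295 and 230). mRpS25 had 680.5 nuclear CPM at 6 h in replicate 1 and at most 3.93 in any other neuron library. The neuron slopes of these genes thus rest mainly on 1 library each.

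**Figure D4:**
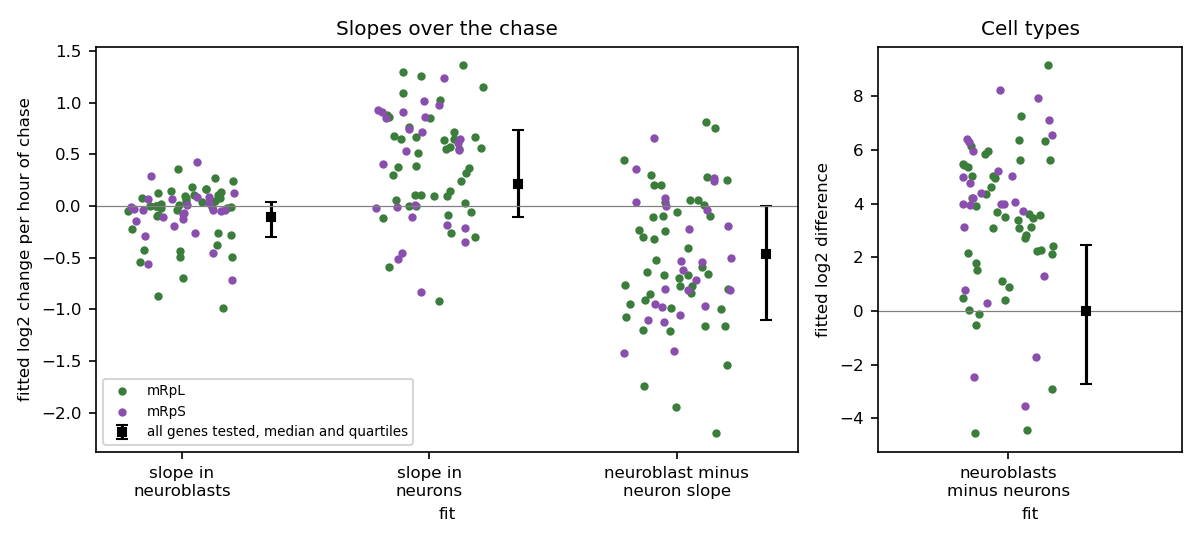
Fitted values of the 73 genes (green, mRpL; purple, mRpS; 1 point per gene past the filter). Left axis, log2 change per hour of chase in neuroblasts, in neurons, and the difference of the 2; right axis, log2 difference between neuroblasts and neurons over all time points. Black squares with bars are the median and quartiles of all genes tested. The difference between cell types is above 0 for 65 of 73 genes, and none of these values passed the threshold.

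The third question was whether the mRNAs differed in level between neuroblasts and neurons over the whole course. The mean level in nuclear CPM was higher in neuroblasts for 60 of the 73 genes (82.2%), beside 42.8% of the 11482 features with counts in both cell types, and the median ratio of means was 3.49 beside 0.754. No gene of the 73 passed the test (edgeR, time point as a factor, lowest adjusted p 0.128, that of mRpS17), against 0.938% of the 12787 genes tested. At an unadjusted p under 0.05, 8 were higher in neuroblasts and 0 in neurons. The fitted difference was positive for 65 genes and negative for 8, with a median of 3.92 log2 units beside 0.01 over all genes tested, and with a median standard error of 3.30 over the 73 genes. It had the same sign in each replicate alone for 51 positive and 3 negative genes of 64, beside 35.4% and 29.2% of all genes. The sign was positive for 28 of 29 genes listed without a bacterial counterpart and 37 of 44 listed with one. mRpL52 was the clearest on the other side, at −4.56 (SE 2.37, adjusted p = 0.314 by edgeR). DESeq2 called 31 genes higher in neuroblasts, among 16.3% of all genes, and mRpL52 higher in neurons, among 12.8%. With RLE scaling edgeR called mRpS17 higher in neuroblasts, among 0.719% of all genes. mRpS17, mRpL20 and mRpL54, all among the DESeq2 calls, did not pass the filter in neurons alone. There only the 12 h library of replicate 2 held counts of them (230, 140 and 1295). They entered this test mainly through neuroblasts, which set the direction, and nothing is read from their calls.

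At the pulse the cell types were farthest apart, over the 73 genes and over all features alike. Both neuroblast libraries lay above both neuron libraries for 38 of 73 genes (52.1%), beside 54.7% of the 10905 features with a count at the pulse. No gene of the 73 had the opposite order, beside 1.06% of these features. At 3 h the first order, neuroblasts above, held for 24 genes (32.9%, beside 22.8% of all features with a count at that time). It held at 6 h for 22 (30.1%, beside 18.2%) and at 12 h for 2, mRpL45 and mRpS17 (2.74%, beside 2.61%). The opposite order held for mRpL52 at 3 h (8.52% of all features), for mRpL34 at 6 h (12.2%) and for 5 genes at 12 h (30.8%), namely mRpL13, mRpL23, mRpL52, mRpL55 and mRpS16. At the pulse 48 genes had 0 counts in both neuron libraries and 66 (90.4%) had fewer than 10 in each, as did 81.0% of all features. Of the 48 genes at 0, 20 had 10 or more counts in both neuroblast pulse libraries. Against a floor of 3 counts per library, taken at the shallower neuron library (0.603 nuclear CPM), their neuroblast mean was at least 11.4-fold to at least 117-fold higher, a direction that the choice of these genes fixed. From the lower of both neuroblast libraries alone the bounds ran from at least 1.52-fold to at least 69.0-fold. mRpL28 had the highest bound from the mean, at 40.1 and 100.4 nuclear CPM, followed by mRpL3 at 8.93 and 94.4, while mRpS33 was at 1.10 and 25.4 and mRpL32, with the lowest bound, at 0.917 and 12.8. With the pulse libraries alone, 35 genes passed the filter and edgeR called 31 of them higher in neuroblasts, as it did 58.5% of the 6802 genes tested. Only 0 and 7 of the 73 genes reached 10 counts in the neuron pulse libraries, so these genes passed the filter mainly through neuroblasts, which set the direction, and nothing is read from that count. The neuron pulse libraries held 921 and 2291 features at 10 or more counts and the neuroblast pulse libraries 7079 and 8976, and the part of this in the difference was not tested.

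Markers of muscle and fat body differed in level between the cell type labels. The 4 muscle markers (Mhc, Mlc2, Mlc1, up) were at 10 or more counts in every neuroblast library and summed to 10479 to 69457 nuclear CPM there, against 136 to 12169 in neurons, where all 4 were detected in 7 of 8 libraries. Of the 4 fat body markers, 2 to 3 were detected in each neuroblast library and 2 to 4 in each neuron library, with sums of 8060 to 51038 and 40.1 to 4919 nuclear CPM. Fbp1 had no neuroblast library with 10 or more counts. The part of these tissues in the levels of the 73 genes was not tested.

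Other genes of mitochondrial translation, a list of 38 translation factors, mitochondrial tRNA synthetases and other proteins of mitochondrial gene expression, gave 0 calls in all 4 edgeR tests. It holds tko and bonsai, which encode mitochondrial ribosomal proteins but whose symbols the rule for the 73 genes does not cover. For the neuroblast slope, 2 of them passed at an unadjusted p under 0.05, for the neuron slope 4, for the difference of slopes 5 and for the difference between cell types 4. DESeq2 called 1, 3, 6 and 14 of them in these tests. Their fitted difference between cell types was positive for 31 of 38 with a median of 2.43. For the 36 genes other than tko and bonsai it was positive for 29 with a median of 2.32, and edgeR called 0 of them in each test. The 92 genes of cytosolic ribosomal proteins, RpL and RpS, took another course in neuroblasts. At least 76 of them were detected in every neuroblast library, also in the 12 h library of replicate 1. Of the 85 that passed the filter, 15 rose relative to the other RNA (edgeR), among them RpS6 at 0.29 (SE 0.07, adjusted p = 0.0159). The median slope of the 85 was 0.25. None fell, at an unadjusted p under 0.05 or in DESeq2 either, and DESeq2 called 74 rising. The number of calls changed with single libraries and with the scaling. edgeR called 0 of the 85 without the 12 h library of replicate 1 (median slope 0.26, with 84 of the 85 slopes positive) and 0 with the total of nuclear-encoded counts (median 0.12). Without the pulse library of replicate 1 it called 2, without either 3 h library 5, and without the 12 h library of replicate 2 it called 6. Other settings called more, 19 without the 6 h library of replicate 2, 21 without the pulse library of replicate 2, 25 without the 6 h library of replicate 1, 28 without replicate 2, 53 with the replicate number as a block and 69 with RLE scaling, and 0 without replicate 1.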

How the data were processed

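EC-tagged RNA was extracted with Trizol, biotinylated by click chemistry, captured on streptavidin beads and sequenced after removal of rRNA. Per the submitters' processing notes and the methods, the authors trimmed reads with Trimmomatic and mapped them to BDGP6 with kallisto, with versions not given in the sources used here. They deposited estimated counts per transcript, not normalized, in 1 table per cell type. Whether reads were counted by strand is not given, and exons of 42 of the 73 genes overlap a gene on the opposite strand and those of 3 (mRpL13, mRpS14 and mRpL53) a gene on the same strand.

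Transcript rows were summed per gene with the Ensembl BDGP6.54 annotation (30819 of 31049 rows matched, 96 of them rows of the 73 genes) and rounded to whole numbers for the tests. Genes were filtered by filterByExpr by group, scaled by TMM and tested with edgeR (version 4.0.16), with Benjamini-Hochberg adjustment over all genes tested and a threshold of 0.05. The slope on hours of chase was fitted in the 8 libraries of each cell type, and its interaction with cell type and the cell type term in all 16. DESeq2 (version 1.42.0), other scalings and filters, the replicate number as a block, 1 transcript per gene and omitted libraries were alternatives, and denominators of the summed level, shares per library in nuclear CPM and the list of other mitochondrial translation genes without tko and bonsai were added after the data were seen. The scripts were tested on simulated data. The genes set to be named were the 12 with the highest total count, any past the threshold, and, for neuroblasts and for neurons, no more than 3 genes on each side of 0 with the steepest slopes of 1 sign in both replicates, with genes of the fixed lists where a count called for them. Of the 12, mRpL2, mRpL35 and mRpL44 are named only here. The genes and lists were chosen with earlier results of these data known. Counting intervals and floors cover counting error only.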

Additional observations from a re-analysis of the deposited data

Results flagged for a closer look

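The summed level of the 73 genes moved in opposite directions in the cell types in every replicate. From the pulse to 12 h of chase it changed by −789 and −989 nuclear CPM in neuroblasts (replicates 1 and 2) and by 612 and 652 in neurons. This difference was not tested. The neuron pulse held 1 count of the 73 genes in replicate 1, and mRpL9 made up 77.6% of their counts in replicate 2. All features also moved these ways. In neuroblasts 48.0 and 55.5% were lower at 12 h and 7.57 and 13.6% higher. In neurons 41.9 and 93.8% were higher and 5.64 and 5.02% lower. With 2 libraries per time point, single samples could not be compared with the rest of their group.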

How the results depend on the processing

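The counts of genes past the threshold stayed at 0 in every alternative except the following. RLE scaling called 3 genes rising in neuroblasts and 1 higher in neuroblasts, mRpS17, which did not pass the filter in neurons alone. Scaling to nuclear-encoded counts called 1 gene with the larger slope in neurons, mRpL54, which did not pass the filter in neurons alone. DESeq2 called 2 rising in neuroblasts, 1 falling and 2 rising in neurons, 4 with a neuron slope above that of neuroblasts and 1 with the reverse, 1 higher in neurons and 31 higher in neuroblasts. The pulse libraries alone gave 31 higher in neuroblasts, a direction set by the filter. The median slope of the 73 genes ran from −0.457 to 0.0676 in neuroblasts and from 0.160 to 0.683 in neurons when libraries were left out. It was −0.46 in neuroblasts and 0.16 in neurons without replicate 2 (62 and 36 genes past the filter), and 0.02 and 0.67 without replicate 1. The cause was not tested, beyond the fewer genes and libraries of these fits. Where an arm of a fit kept 1 library, that library was assumed to vary like the others.

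Scaling moved the median difference between cell types over all genes from 0.01 (TMM) to 0.66 (RLE), and the 73 genes stood 3.91 and 3.87 above it. RLE moved the calls over all genes for this difference from 110 lower and 10 higher to 250 and 92, and for the difference of slopes from 66 and 7 to 3 and 7. Over all genes, the neuroblast slope had 61 calls with TMM, 737 with RLE, 1 with nuclear-encoded counts, 982 in DESeq2 and 145 with the replicate block. The difference between cell types had 120, and 504 with the block and 50 to 287 when 1 library was left out. Over the 21 genes set to be named by rule, 160 fitted values changed sign, 29 passed the threshold and 1619 did neither, with none called in the reported fits.

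Replicate numbers were not taken to pair the libraries, since the correlation of replicate differences between time points ran from 0.065 to 0.21 for neuroblasts and from 0.057 to 0.31 for neurons. Every correlation was positive, so libraries of 1 number tended to deviate together. In neurons, mitochondrially encoded RNA took 86.3 to 92.1% of the counts in replicate 1 and 2.75 to 11.9% in replicate 2. The main fits held no term for the replicate number, and its part in their spread was not tested. With the replicate block, 0 of the 73 genes passed in each test, with medians of −0.08 and 0.41 for the slopes in neuroblasts and neurons. A count of 3 stands for 0.105 to 0.309 nuclear CPM in neuroblast libraries, 0.221 to 0.603 in neuron libraries of replicate 1 and 0.0146 to 0.0332 in those of replicate 2, and the part of depth in detection was not tested.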
